A study of Mus musculus with 2 samples.

Results

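Interferon-stimulated genes were followed as a set of 34 genes through the single-cell transcriptomes of embryonic thymus, and 33 of the 34 had a row among the 22032 gene rows of the deposited table. Mx2 was not analysed here. The members are listed by symbol, as genes known to be transcribed after interferon signalling, and the rule that lists them uses no measured value. Their unique molecular identifiers (UMIs, counts of captured messenger molecules) were read within 4 gates, each defined by a pair of genes, and within each of 2 barcode suffixes.

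The study sorted double-negative 1 (DN1) cells, the most immature CD4- CD8- fraction of the thymus, from 5x polychromILC mice, a strain that carries reporters for genes of innate lymphoid and T cell development, among them Id2, Gata3, Rora and Bcl11b. Both groups share that strain, tissue and sort, and the label of one is E15.5_DN1 and of the other E19.5_DN1, each with a single library. Which suffix belongs to which stage is not given by any label. The stages are therefore left uncompared, and a difference between suffixes compares those 2 sets of barcodes and not the conditions. There are no replicates, no test was run, and every 95% interval covers counting error only.

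Interferons are secreted signals of antiviral defence. Type I interferons act through the receptor chains Ifnar1 and Ifnar2, and interferon gamma acts through Ifngr1 and Ifngr2. Receptor-bound Janus kinases (Jak1, Jak2, Tyk2) then pass the signal on by phosphorylation. A complex that includes Stat2 and Irf9 binds the interferon-stimulated response element, whose core holds a pair of GAAA blocks, and a palindromic site serves the response to interferon gamma. A low tonic level of this signalling is known in uninfected tissue, and the thymus is one of the tissues in which constitutive interferon production has been described.

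Promoter sequences were searched for the paired core of the response element close to each start. RefSeq promoters (build GRCm38.p6) were found for 25 of the 34 members, 31 promoters in all, and the 250 bases before each start were searched on both strands for the paired motif GAAA, any 2 bases, GAAA. The motif was in 10 of those 31 promoters (32.3%), against 2.98% of all 32851 promoters of the same length. The members with a match were Ifit1, Ifit3, Ifit3b, Rsad2, Isg15, Bst2, Oas1a, Oas3, Stat2 and Trim30a. TTCNNNGAA, the palindromic form, was in 6 of the 31 (19.4%) against 7.02% of all promoters. A match is a description of the letters in this window. A promoter without one may hold GAAA blocks at another spacing in the window, as that of Ddx58 does, or the element elsewhere.

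The promoters below are shown for Ifit1, which helps to set barcodes apart, for Isg15 and Oas1a, which were higher in suffix 2 in every gate, for Bst2, the most abundant member, and for Irf7, which was also higher in suffix 2 in every gate but has no match here. Each is printed 5′ to 3′ on the strand of its gene, ending at the base before the RefSeq start, with matches to the paired GAAA motif on either strand in capitals. Overlapping matches share letters, as in the 3 matches of Isg15 and the pairs of Bst2 and Oas1a. The windows are chr19:34640639-34640888 (plus strand) for Ifit1, chr4:156200819-156201068 (minus) for Isg15, chr5:120907526-120907775 (minus) for Oas1a, chr8:71537473-71537722 (minus) for Bst2 and chr7:141266425-141266674 (minus) for Irf7.
Ifit1: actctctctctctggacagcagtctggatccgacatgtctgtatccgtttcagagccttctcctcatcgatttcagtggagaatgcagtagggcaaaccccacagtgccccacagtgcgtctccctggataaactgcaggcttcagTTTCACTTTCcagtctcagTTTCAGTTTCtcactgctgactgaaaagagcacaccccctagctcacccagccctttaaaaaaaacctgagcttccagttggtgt
Isg15: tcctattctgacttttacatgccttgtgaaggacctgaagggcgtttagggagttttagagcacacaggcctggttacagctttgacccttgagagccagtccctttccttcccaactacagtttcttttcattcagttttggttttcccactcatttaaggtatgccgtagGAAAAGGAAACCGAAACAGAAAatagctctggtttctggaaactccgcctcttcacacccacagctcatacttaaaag
Oas1a: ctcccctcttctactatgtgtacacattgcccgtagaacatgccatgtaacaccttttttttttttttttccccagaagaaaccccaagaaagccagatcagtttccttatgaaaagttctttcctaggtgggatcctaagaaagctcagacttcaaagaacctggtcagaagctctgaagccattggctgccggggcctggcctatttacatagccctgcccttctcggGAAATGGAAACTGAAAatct
Bst2: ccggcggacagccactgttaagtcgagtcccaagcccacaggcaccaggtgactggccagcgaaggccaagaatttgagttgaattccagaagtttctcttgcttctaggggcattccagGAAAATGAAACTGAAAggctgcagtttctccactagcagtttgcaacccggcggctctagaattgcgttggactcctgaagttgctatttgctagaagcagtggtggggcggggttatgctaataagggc
Irf7: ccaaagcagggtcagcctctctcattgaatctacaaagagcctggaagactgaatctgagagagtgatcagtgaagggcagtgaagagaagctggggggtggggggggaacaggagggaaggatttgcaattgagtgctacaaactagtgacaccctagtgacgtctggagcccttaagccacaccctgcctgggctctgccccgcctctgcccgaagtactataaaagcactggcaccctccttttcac
The matches of Ifit1 lay 75 and 94 bases before the start, those of Isg15 between 56 and 68 bases before it, and those of Oas1a within 10 bases of it.

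Several members are neighbours in the genome. Of the 34 members, the 5 genes of the oligoadenylate synthetase family (Oas1a, Oas2, Oas3, Oasl1, Oasl2) lie on chromosome 5, and Ifit1, Ifit2, Ifit3 and Ifit3b lie on chromosome 19. Near-identical copies limit 2 of them. Of the 90-base words in the last 500 bases of their transcripts, 42.3% of those of Oas1a also occur in Oas1g, and 6.57% of those of Ifit3 also occur in Ifit3b, so the counts of these genes are uncertain.

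The table held 2182 barcodes of suffix 1 and 3875 of suffix 2, and 25 barcode sequences occurred under both. After filters on genes and mitochondrial UMIs and removal of doublets called by Scrublet, 2137 and 3275 barcodes remained, with medians of 14841 and 13688 UMIs. Scrublet called 0.466% of the barcodes of suffix 1 and 2.76% of those of suffix 2, so doublets may remain in suffix 1. A barcode entered a gate with at least 2 UMIs of each gene of its pair, Spi1 and Bcl11a for progenitors, Icos and Rora for group 2 innate lymphoid cells (ILC2), Xcl1 and Nkg7 for natural killer and group 1 innate lymphoid cells (NK/ILC1), and Cd3g and Myb for DN2/DN3 T cell precursors. These held 231, 193, 884 and 150 barcodes in suffix 1 and 556, 796, 495 and 169 in suffix 2, while 158 and 75 met more than 1 pair. Median depth was 32400 and 32320 UMIs in the progenitor gate but 11580 and 11054 in the NK/ILC1 gate. The gates differ in marker content between suffixes: within the ILC2 gate, Il1rl1, the interleukin-33 receptor, was at 28.4 CPM (UMIs scaled to the same total in every group) in suffix 1 and 254 in suffix 2, and Klrd1, an NK receptor, was at 121 and 4.79. In the NK/ILC1 gate, 50 of the 884 barcodes of suffix 1 and 0 of suffix 2 had at least 3 UMIs of Krt8 and Krt18, keratins of thymic epithelium. Haemoglobin Hbb-bt was at 291 CPM there in suffix 1 and 5.32 in suffix 2.

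Members were expressed at low levels in all 4 gates of both suffixes. Levels are the summed UMIs of a gate as CPM, without the barcodes set apart for at least 3 UMIs of Ifit1 and Rsad2. They are not divided by length, since the libraries count molecules at their 3′ ends, and the order of genes also depends on how well each end is captured. All measured members together made up 531 CPM in the progenitor gate of suffix 1, 330 in the ILC2 gate, 503 in the NK/ILC1 gate and 490 in the DN2/DN3 gate. In suffix 2 the same sums were 899, 1047, 1455 and 689 CPM, each above its counterpart.

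Bst2, the tetherin that holds budding virus at the cell surface, had the highest level of any member in 7 of the 8 combinations of gate and suffix. In suffix 1 it was at 209 CPM (199 to 220) in progenitors, 60.9 (53.2 to 69.3) in the ILC2 gate, 147 in the NK/ILC1 gate and 252 in the DN2/DN3 gate. In suffix 2 it was at 295, 247, 336 (321 to 351) and 214 CPM. The exception was the ILC2 gate of suffix 1, where Irf1, a transcription factor induced by interferon gamma, was at 72.1 CPM. The 3 most abundant members made up between 38.0 and 65.9% of the summed level across gates.

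Effector genes followed at lower levels. Isg15, a ubiquitin-like protein that is attached to other proteins, was at 32.7 CPM in progenitors, 6.44 in the ILC2 gate, 30.1 in the NK/ILC1 gate and 14.2 in the DN2/DN3 gate of suffix 1. Its levels in suffix 2 were 82.0, 56.8, 123 and 47.4 CPM. Isg20, a 3′ exonuclease, ranged from 13.7 to 31.8 CPM in suffix 1 and from 24.3 to 141 in suffix 2, highest in the NK/ILC1 gate in both. Usp18, which removes Isg15 and restrains receptor signalling, ranged from 0.805 to 5.71 CPM in suffix 1 and from 4.88 to 17.7 in suffix 2. Eif2ak2, the kinase PKR that halts translation on double-stranded RNA, ranged from 15.2 to 33.0 and from 30.8 to 46.7 CPM.

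At the other end were Ifit3b, one of the Ifit genes, which bind viral RNA, and Ifi44. Ifit3b and Ifi44 had 0 UMIs in every gate of suffix 1, which allows up to 0.268 CPM in its NK/ILC1 gate, the one with the most UMIs in all. Ifit3 was also at 0 in 3 of these gates and at 0.536 CPM in the NK/ILC1 gate. In suffix 2, Ifit3 was at 0.917 CPM in progenitors, 3.54 in the ILC2 gate, 6.56 in the NK/ILC1 gate and 0.248 in the DN2/DN3 gate. Ifit2 ranged from 1.52 to 2.61 CPM in suffix 1 and from 1.63 to 5.21 in suffix 2. Ifit1 and Rsad2 levels are bounded by the setting apart, which leaves at most 2 of their UMIs in a barcode.

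The oligoadenylate synthetases, which activate the ribonuclease RNase L on double-stranded RNA, were also low. Oas1a ranged from 0 to 3.67 CPM over the gates of suffix 1 and from 3.16 to 9.40 in suffix 2, and Oas3 from 0 to 1.88 and from 2.23 to 15.4. Among the cytoplasmic RNA sensors, Ddx58 (RIG-I) ranged from 6.15 to 17.6 CPM in suffix 1 and from 15.0 to 51.6 in suffix 2. Ifih1 (MDA5) ranged from 3.04 to 9.24 and from 5.65 to 10.8 CPM, so that the suffixes overlapped. Parp14, an ADP-ribosyltransferase, ranged from 7.51 to 11.0 CPM in suffix 1 and from 13.5 to 38.7 in suffix 2. Herc6, a ligase that attaches Isg15 in the mouse, ranged from 9.12 to 13.6 and from 13.9 to 30.9 CPM.

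**Figure D1:**
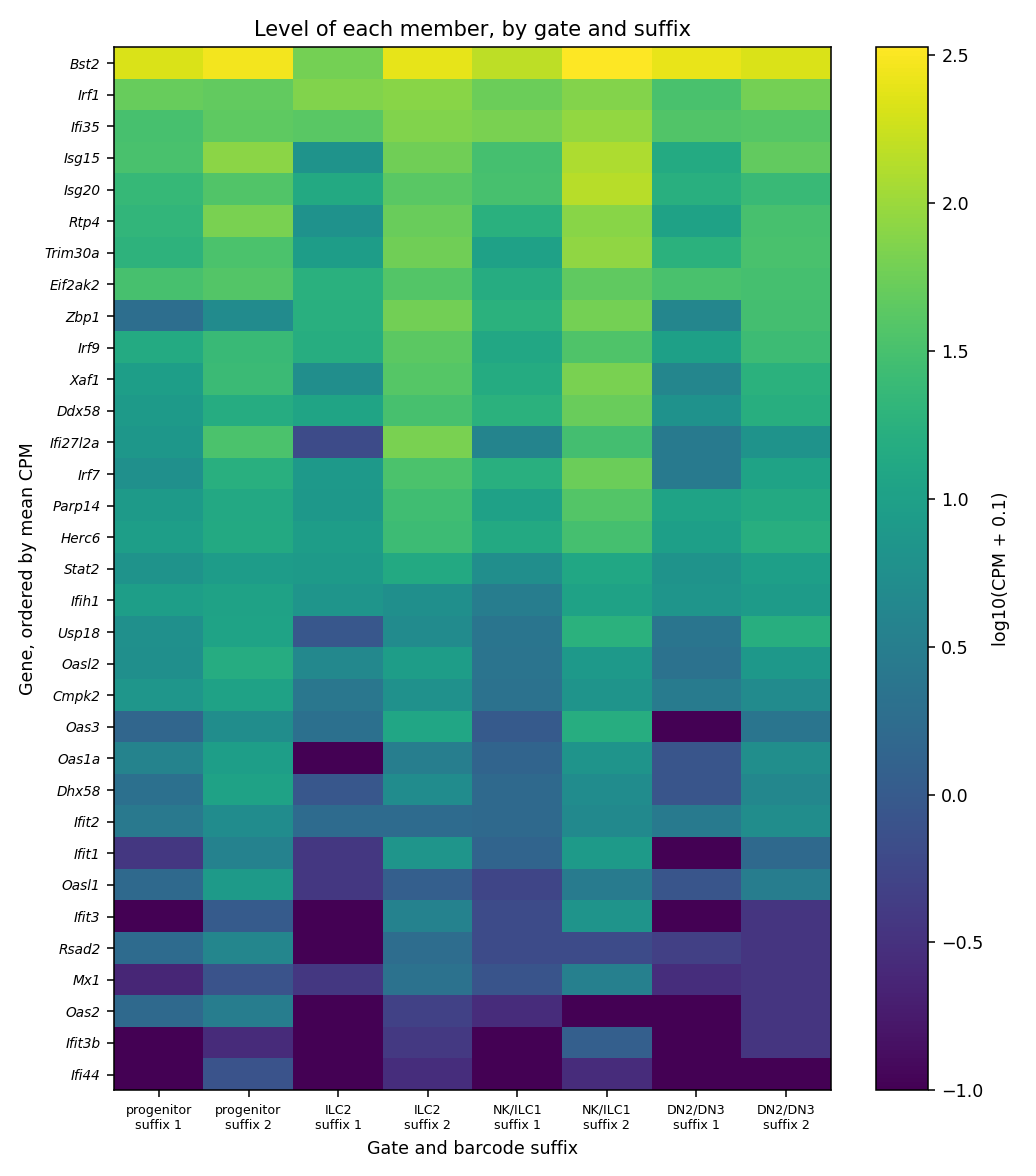
Level of each of the 33 members (rows, ordered by mean CPM) in each gate and suffix (columns), as log10(CPM + 0.1) on a colour scale, without the barcodes set apart. Bst2 is brightest in most columns, and Ifit3b and Ifi44 are at 0 in all 4 columns of suffix 1.

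A member was measured in a comparison with at least 20 UMIs over both gates, and it was counted when its CPM differed at least 2-fold. Where measured, Ifit1 and Rsad2 are included in these counts and medians, though the setting apart bounds their levels. From progenitors to the ILC2 gate in suffix 1, 1 of 23 measured members was higher and 8 were lower, beside 11.5% and 13.1% of all genes, with a median log2 ratio of -0.68 against -0.06 for all genes. In suffix 2, 7 of 31 were higher and 7 lower, beside 13.4% and 17.3% of all genes, with a median of 0.64 against -0.13. These medians had opposite signs in the 2 suffixes, and that difference was not tested. With the barcodes set apart kept in, the suffix 2 median was 0.0026, with 3 members higher and 9 lower.

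For the NK/ILC1 gate against progenitors in suffix 1, 4 of 25 members were higher and 6 lower, beside 9.55% and 18.3% of all genes, and their median of -0.30 was that of all genes, -0.31. In suffix 2, 12 of 31 were higher and 5 lower, beside 13.8% and 19.2%, and the median was 0.58 against -0.16. The sign of the suffix 1 value is not stable: it was 0.02 with median-of-ratios scaling and 0.18 after thinning, in which 5000 UMIs were drawn at random from each barcode and shallower barcodes were left out. The median of the members was lower in DN2/DN3 barcodes than in progenitors in both suffixes, though not every member was lower. There, 1 of 23 was higher and 8 were lower in suffix 1, beside 3.75% and 4.43% of all genes, and 1 of 29 was higher and 10 were lower in suffix 2, beside 6.58% and 8.19%. The medians were -0.48 and -0.51, against 0.00 and 0.01 for all genes. Under the alternatives they ranged from -0.82 to -0.23 and from -1.04 to -0.25. The counts were less stable: after thinning, 3 members were lower in suffix 1 and 6 in suffix 2, with 0 and 1 higher. The NK/ILC1 gate was above the ILC2 gate, with 8 of 23 members higher and 2 lower in suffix 1 (6.48% and 10.3% of all genes) and 6 of 30 higher and 2 lower in suffix 2 (7.91% and 9.45%).

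Zbp1, a sensor of Z-form nucleic acid that can start necroptosis, was at least 2-fold above progenitors in the ILC2 and NK/ILC1 gates of both suffixes. It was at 1.77 CPM in progenitors of suffix 1 and at 16.9, 17.7 and 4.10 CPM in the ILC2, NK/ILC1 and DN2/DN3 gates. In suffix 2 the levels were 4.93 CPM in progenitors and 59.7, 61.2 and 29.3 in the others. The ILC2 gate was 9.57-fold above progenitors in suffix 1 (log2 ratio 3.26, 2.38 to 4.24) and 12.1-fold in suffix 2 (log2 ratio 3.60, 3.27 to 3.94). The DN2/DN3 gate of suffix 1 was 2.32-fold above progenitors on 22 and 13 UMIs (log2 ratio 1.22, 0.16 to 2.33). That ratio was under 2-fold with the barcodes set apart kept in or with barcodes of more than 1 gate assigned to one, and could not be measured after thinning or with a minimum of 50 UMIs. After thinning, 1.57% of progenitor barcodes of suffix 2 held a Zbp1 UMI, against 21.5% in the ILC2 gate and 24.9% in the NK/ILC1 gate. The unthinned shares of the first 2 were 10.9 and 38.4%. No gate is known to lack these genes, so a share set by free RNA alone was not measured.

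Irf7, the transcription factor that amplifies type I interferon production, and Ddx58 were at least 2-fold above progenitors in the NK/ILC1 gate of both suffixes. Irf7 was at 5.71 CPM in progenitors and 16.6 in the NK/ILC1 gate of suffix 1, and at 16.8 and 54.5 in suffix 2. Oasl2, a synthetase-like protein, ran the other way, from 5.57 to 2.14 CPM and from 15.4 to 7.63. Its levels were also at least 2-fold lower in the DN2/DN3 gate than in progenitors in both suffixes, as were those of Cmpk2, a mitochondrial nucleotide kinase, and Ifi27l2a, a small mitochondrial protein. Oas1a and Usp18 were lower in the ILC2 gate than in progenitors in both, and Oas1a had 0 UMIs in the ILC2 gate of suffix 1, at least 4.56-fold lower. Isg15, Isg20 and Usp18 were higher in the NK/ILC1 gate than in the ILC2 gate in both, though the interval for Usp18 in suffix 1 (log2 ratio 1.47, -0.24 to 3.84) included 0. Other members reversed between the suffixes. Of those measured in both, 6 of 23 had opposite signs for the ILC2 gate against progenitors. The same held for 10 of 25 in the NK/ILC1 gate and 8 of 23 in the DN2/DN3 gate against progenitors. For the NK/ILC1 gate against the ILC2 gate it was 5 of 23. The share of all genes past 2-fold in both suffixes was not computed.

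Between the suffixes, members were higher in suffix 2 in each gate. This comparison was added after the data were seen. Among progenitors, 14 of 29 measured members were at least 2-fold higher in suffix 2, beside 3.59% of all genes, and 0 were 2-fold lower, beside 1.08%. The ILC2 gate gave 23 of 28 higher (7.23% of all genes), the NK/ILC1 gate 27 of 29 (14.7%) and the DN2/DN3 gate 12 of 24 (6.82%), with 0 lower in each, beside 4.15%, 7.12% and 2.64% of all genes. The median log2 ratios were 0.97, 1.93, 1.83 and 1.15, while those of all genes were 0.03, -0.05, 0.24 and 0.04. Over the 110 pairs of member and gate, 76 were at least 2-fold higher in suffix 2, 4 had a log2 ratio below 0, and none was 2-fold lower. All these counts and medians include Ifit1 and Rsad2, whose levels are bounded by the setting apart. Ifit1 was counted as higher in the 3 gates where it was measured, and Rsad2 in 1.

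Of the 24 members measured in all 4 gates, 9 were at least 2-fold higher in suffix 2 in each, beside 0.414% of all genes measured in all 4: Isg15, Oas1a, Oasl2, Irf7, Rtp4, Ifi27l2a, Dhx58, Xaf1 and Zbp1. Rtp4, a receptor-transporting protein with antiviral activity, was at 21.1, 6.17, 17.1 and 10.8 CPM in progenitor, ILC2, NK/ILC1 and DN2/DN3 gates of suffix 1. It was at 65.0, 51.9, 80.4 and 31.5 CPM in suffix 2. Ifi27l2a had the largest ratio of any member, in the ILC2 gate, with 0.536 CPM (2 UMIs) in suffix 1 and 64.7 CPM in suffix 2, a log2 ratio of 6.91 (5.06 to 9.96). Trim30a, a restraint on inflammatory signalling, was 6.23-fold higher in the ILC2 gate and 8.59-fold in the NK/ILC1 gate, but 1.76-fold among progenitors and 1.88-fold in the DN2/DN3 gate.

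Irf1 and Ifi35 were not 2-fold higher in any gate. Irf1 was at 50.3 and 48.2 CPM in progenitors of suffixes 1 and 2, 72.1 and 79.4 in the ILC2 gate, 54.4 and 74.5 in the NK/ILC1 gate and 32.3 and 61.8 in the DN2/DN3 gate. Bst2 was lower in suffix 2 in the DN2/DN3 gate (log2 ratio -0.24, -0.36 to -0.11) and higher in the others. The Stat2 and Irf9 partners of the response complex had ratios between 0.44 and 1.21 and between 0.81 and 1.46. Oas3 in the NK/ILC1 gate went from 0.893 to 15.4 CPM (log2 ratio 4.11, 3.16 to 5.22).

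**Figure D2:**
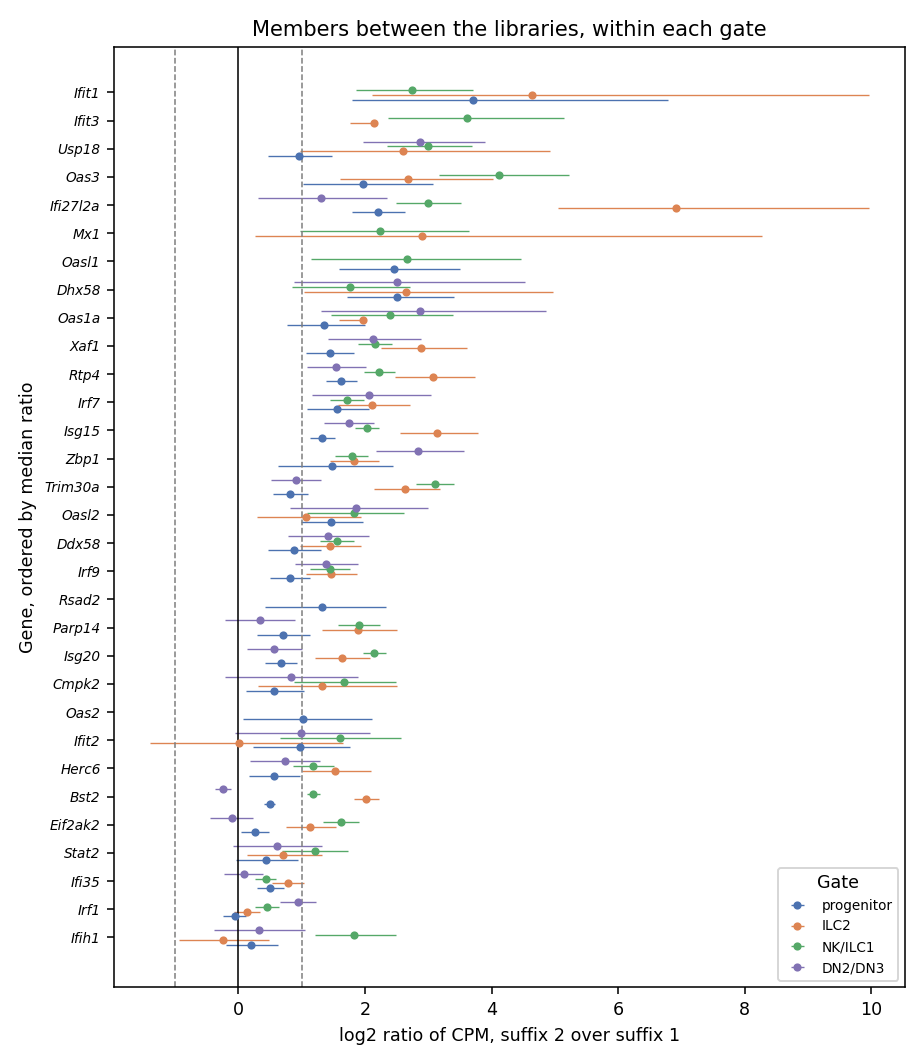
Log2 ratio of CPM in suffix 2 over suffix 1 (x axis) for each measured member (y axis, ordered by median ratio), coloured by gate, with 95% counting intervals and dashed lines at 2-fold. Ifit3 and Oas1a in the ILC2 gate are lower bounds, since suffix 1 has 0 UMIs there. Most points lie right of 0, and Irf1 and Ifi35 stay within 2-fold in all gates.

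The medians stayed positive when depth was made equal and when barcodes with epithelial transcripts were left out. After thinning every barcode to 5000 UMIs the medians were 0.94, 1.76, 2.03 and 1.62. Without barcodes that held 1 or more UMIs of Krt8 and Krt18 they were 0.94, 1.81, 1.73 and 1.15. The thinned share of barcodes with an Isg15 UMI was 17.0, 1.58, 12.1 and 8.11% in the 4 gates of suffix 1 and 28.6, 17.2, 29.4 and 22.9% in suffix 2. The unthinned shares were 47.8, 7.89, 23.2 and 34.2% and 70.9, 27.8, 43.3 and 43.4%. Marker content also differed between the suffixes in every gate, and its part in these differences was not tested. Hbb-bt, for example, was at 831 and 505 CPM in the progenitor gates of suffixes 1 and 2, 1.61 and 4.40 in the ILC2 gates and 495 and 155 in the DN2/DN3 gates.

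Other genes of the pathway gave smaller ratios. The 15 measured receptor and signalling genes had median log2 ratios of 0.18, 0.57, 0.66 and 0.58 in the 4 gates. Of them, 0, 2, 4 and 3 were at least 2-fold higher in suffix 2, beside 3.59%, 7.23%, 14.7% and 6.82% of all genes. The 2 that were lower were both in the NK/ILC1 gate, beside 7.12% of all genes there. The medians of all genes given above for the comparison of suffixes apply to every list here. Ifnar1 was at 12.6 and 20.5 CPM in progenitors and 15.0 and 38.8 in the NK/ILC1 gate. Nucleic acid sensors and adaptors had medians between -0.08 and 0.28. A list of 65 further interferon response genes had medians of 0.68, 1.23, 1.34 and 0.61. Not all of its genes went that way: Ifitm1, a membrane protein that blocks viral entry, was at 1748 CPM in the ILC2 gate of suffix 1 and 44.1 in suffix 2, and at 2206 and 355 in the DN2/DN3 gate.

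Interferon transcripts other than those of interferon gamma were rare. Of the 21 ligand genes with a row, Ifnb1 had 0 UMIs in both suffixes, which allows up to 0.140% of barcodes of suffix 1 and 0.0916% of suffix 2 with a UMI. Ifng, interferon gamma, was the only abundant ligand, with 1948 UMIs in 622 barcodes of suffix 1 and 1006 in 328 of suffix 2. It lay mainly in the NK/ILC1 gate, at 114 and 132 CPM in suffixes 1 and 2. In the ILC2 gate it was at 18.5 and 0.670 CPM. Whether Ifng levels bear on the members was not tested.

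A fraction of barcodes held at least 3 UMIs of Ifit1 and Rsad2 (viperin, a radical enzyme that makes an antiviral nucleotide). There were 24 of 2137 kept barcodes in suffix 1 (1.12%) and 208 of 3275 in suffix 2 (6.35%, 5.54 to 7.24). By gate in suffix 2 they were 44 of 556 progenitors (7.91%), 36 of 796 in the ILC2 gate (4.52%), 40 of 495 in the NK/ILC1 gate (8.08%) and 3 of 169 in the DN2/DN3 gate (1.78%). In suffix 1 they were 7, 3, 5 and 1 barcodes. Just inside the threshold, 4 and 48 barcodes of suffixes 1 and 2 held 3 UMIs, and just outside it 2 and 83 held 2.

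The order of the gates differed at equal depth. At 5000 UMIs per barcode, the shares in suffix 2 were 1.62% of progenitors (0.744 to 3.06), 1.66% in the ILC2 gate (0.885 to 2.82) and 4.54% in the NK/ILC1 gate (2.86 to 6.79). Progenitor barcodes, which have the higher median depth, were level with the NK/ILC1 gate before thinning and with the ILC2 gate after it. Thinning left out 10 barcodes of the NK/ILC1 gate in each suffix, 11 of the ILC2 gate, 13 of the DN2/DN3 gate and 1 of the progenitor gate in suffix 2, and 1 of the DN2/DN3 gate in suffix 1. In suffix 1 the thinned shares were 0.866, 1.55, 0.229 and 0% for the progenitor, ILC2, NK/ILC1 and DN2/DN3 gates.

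**Figure D3:**
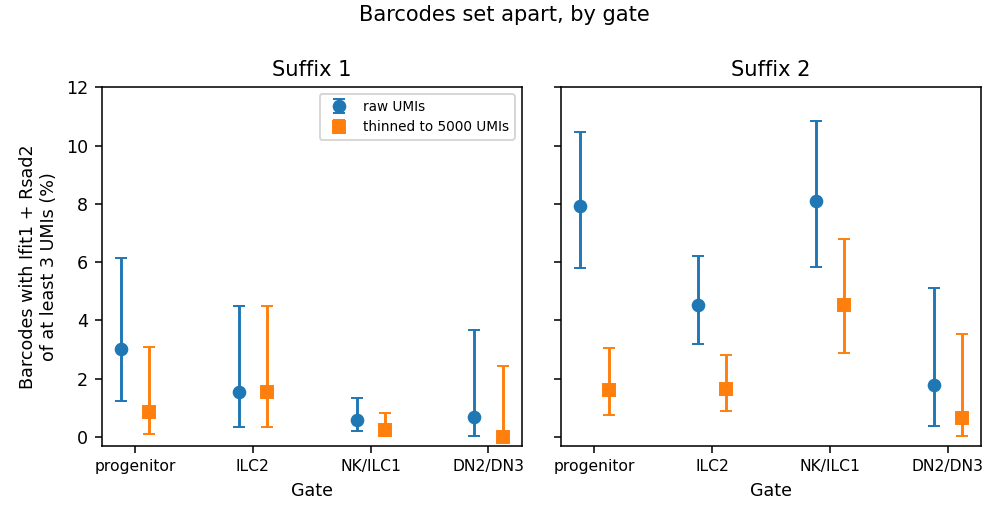
Share of barcodes with at least 3 UMIs of Ifit1 and Rsad2 (y axis, percent) in each gate (x axis) of suffix 1 (left) and suffix 2 (right), from raw UMIs (circles) and after thinning to 5000 UMIs (squares), with exact 95% binomial intervals. Progenitors of suffix 2 go from 7.91% to 1.62% with thinning, and the NK/ILC1 gate from 8.08% to 4.54%.

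Ifit1 and Rsad2 chose these barcodes, so the following values describe them and support nothing further. In suffix 2, the members in total were at 4035 CPM in the progenitor barcodes set apart, against 899 in the others, 4697 against 1047 in the ILC2 gate and 6559 against 1455 in the NK/ILC1 gate. With Ifit1 and Rsad2 left out, the sums over the other 31 members were 3661, 4161 and 5806 CPM. Of the measured members other than Ifit1 and Rsad2, 28 of 31 among progenitors, 26 of 28 in the ILC2 gate and 27 of 29 in the NK/ILC1 gate were at least 2-fold higher, beside 2.61%, 5.02% and 3.63% of all genes. Among the 7 progenitor barcodes set apart in suffix 1 it was 23 of 26, beside 10.5%. Those 23 include Oas1a, which had 0 UMIs there against 27 (3.67 CPM) in the others. It passed 2-fold only because a 0 was set at 3 counts, and the share of all genes was counted in the same way. Among the ungated barcodes of suffix 2 it was 29 of 30, beside 3.29%.

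Isg15 took over from Bst2 as the most abundant member. It was at 718 CPM (676 to 762) in the progenitor barcodes set apart, 620 in the ILC2 gate and 1071 in the NK/ILC1 gate, log2 ratios of 3.12 to 3.45 over the other barcodes. Mx1, a dynamin-like guanosine triphosphatase that blocks virus replication, was at 38.6, 50.7 and 108 CPM, with ratios of 4.66 to 5.81. Ifit3 reached 91.8, 89.1 and 349 CPM. Usp18 had ratios of 3.35 to 3.91. At the low end, Irf1 had ratios of 0.52 to 0.88 and Irf9 of 0.82 to 0.98, and Bst2 and Ifi35 lay near 2-fold. Zbp1 went from 4.93 to 53.9 CPM among progenitors (log2 ratio 3.45), and reached 189 and 233 CPM in the ILC2 and NK/ILC1 gates.

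**Figure D4:**
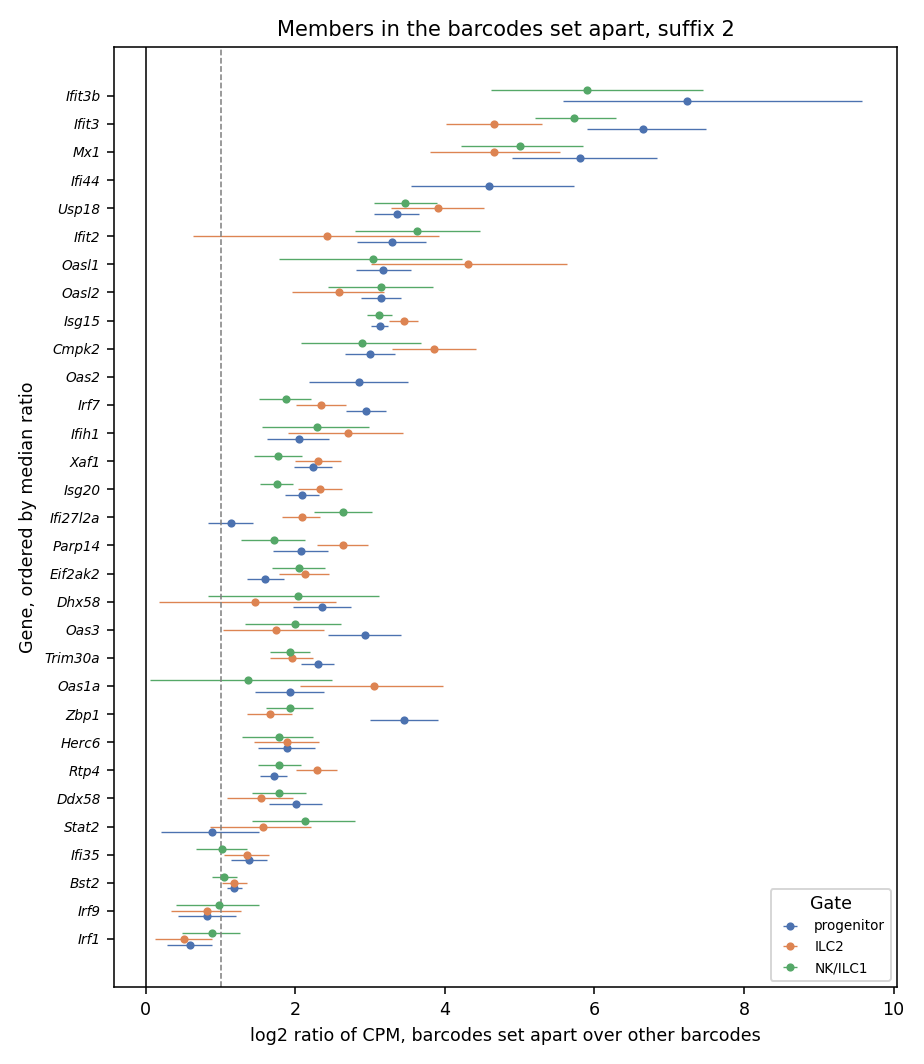
Log2 ratio of CPM in the barcodes of suffix 2 with at least 3 UMIs of Ifit1 and Rsad2 over the other barcodes of the same gate (x axis) for the other measured members (y axis, ordered by median ratio), coloured by gate, with 95% counting intervals and a dashed line at 2-fold. Ifit3b, Ifit3 and Mx1 are at the top, and Irf9 and Irf1 are below 2-fold in all 3 gates.

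The number of other members per barcode is given by the count of Ifit1 and Rsad2. The pair was counted on raw UMIs, and the other 31 members after thinning to 5000 UMIs. Among all barcodes of suffix 2, gated or not, those with 0, 1, 2, 3 and 4 or more UMIs of the pair held medians of 3, 5, 7, 9 and 12 of the other 31. Within gates the steps were not even: the medians were 3, 4, 5.5, 5 and 10 among progenitors, 3, 7, 9, 10 and 11 in the ILC2 gate and 4, 8.5, 7, 9 and 14 in the NK/ILC1 gate. Before thinning, the barcodes set apart and the others in suffix 2 had median depths of 13821 and 13687 UMIs, and those in suffix 1 of 20864 and 14830. At least 10 of the 31 were detected in 141 of 207 barcodes set apart (68.1%) and in 139 of the 2901 others (4.79%). The share in the barcodes set apart was 45.5% among progenitors, 66.7% in the ILC2 gate, 80.0% in the NK/ILC1 gate and 1 of 3 in the DN2/DN3 gate. A raw count of the pair depends on depth, and median depth differed between gates (32320 UMIs for progenitors and 11054 for the NK/ILC1 gate). The part of depth in these differences between gates was not tested. Of 2576 barcodes with 0 UMIs of the pair, 72 still held at least 10. In suffix 1, where the barcodes set apart had a median of 12 and the others of 2, 6 of 2042 others held at least 10.

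**Figure D5:**
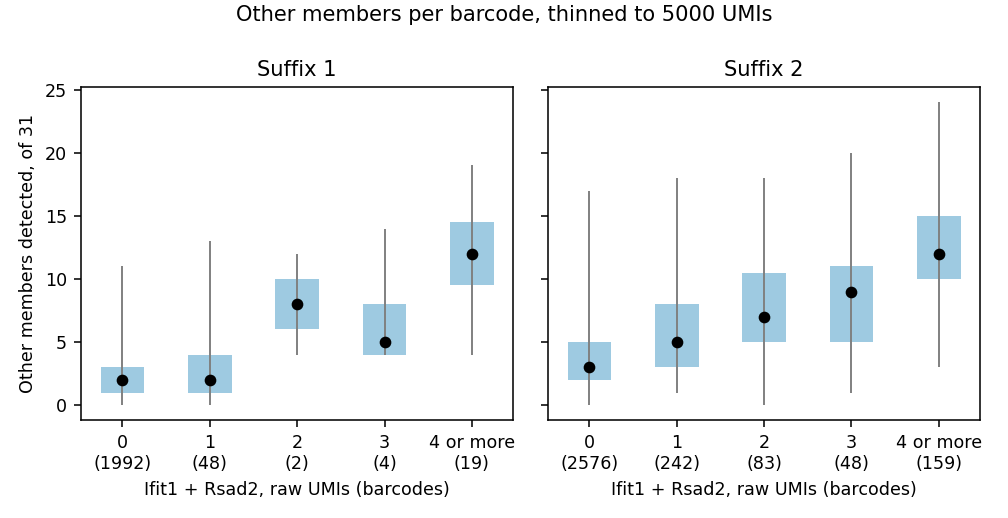
Number of the other 31 members detected per barcode after thinning to 5000 UMIs (y axis) by raw UMIs of Ifit1 and Rsad2 (x axis, number of barcodes in brackets), for suffix 1 (left) and suffix 2 (right). Points are medians, thick bars the quartiles and lines the full range, and the medians in suffix 2 go from 3 to 12.

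Signalling genes gave mixed values in the barcodes set apart and in the others of suffix 2. Of the receptors, Ifnar1 was at 18.0 and 20.5 CPM among progenitors and 40.2 and 38.8 in the NK/ILC1 gate. Socs1, which feeds back on the receptor kinases, was at 56.6 and 14.0 CPM among progenitors and 315 and 122 in the NK/ILC1 gate, but at 152 and 142 in the ILC2 gate.

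Outside the list, the 10 genes with the highest ratios in the progenitor barcodes set apart included Cxcl10, Iigp1, Slfn5, Ifi206, Ube2l6, Serpina3g, Ms4a6b, Igtp and Gbp2. Iigp1, an immunity-related guanosine triphosphatase, was at 53.9 and 1.49 CPM. Igtp and Gbp2, of the interferon-inducible guanosine triphosphatase families, were at 94.5 and 18.6 and at 33.9 and 7.11. Ube2l6, which conjugates Isg15, was at 37.3 and 5.73 CPM. Cxcl10, a chemokine that attracts activated T cells and NK cells, was at 35.9 and 0.573 CPM in the progenitor gate. Its level in the NK/ILC1 gate, 1140 against 23.8 CPM, rested on 1 barcode that held 73.8% of the UMIs, and was 306 CPM without it. Ifng in the NK/ILC1 gate was at 379 CPM in the barcodes set apart and 132 in the others, and at 289 without the barcode with the most.

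Markers of other cell types were also summed, and their part in the results was not tested. In suffix 2 the 9 thymic epithelium markers summed to 18.0, 55.9 and 76.2 CPM in the progenitor, ILC2 and NK/ILC1 barcodes set apart, against 16.6, 33.8 and 51.4 in the others. The 15 dendritic cell and macrophage markers summed to 64.5 and 12.2 CPM among progenitors and in the ILC2 gate, against 69.8 and 11.1, and to 21.2 CPM in those of the NK/ILC1 gate. Their list shares a gene with the progenitor markers, so the progenitor sums are not of other cell types alone. The sum in the other barcodes of the NK/ILC1 gate is not reported here, so no difference is read there. In the ILC2 gate Gzma, a granzyme of NK cells, was at 121 CPM in the barcodes set apart and 28.3 in the others. Gzma is not among the summed markers and was picked after its value was seen. The sum of the NK/ILC1 markers in these barcodes is not reported here. In suffix 1, 1 of the 7 progenitor barcodes set apart, with 71915 UMIs, held 257 UMIs of the epithelium markers and 343 of the dendritic cell and macrophage markers, while the other 6 held at most 4 and 3.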

How the data were processed

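The authors deposited a table of UMI counts, whole numbers for each gene and barcode. Libraries were made with the 10x 3′ chemistry, per the labels' protocols, which also describe a lysis that releases nuclei. Whether nuclei or whole cells went into the droplets could not be settled. The submitters' processing notes name Cell Ranger 3.0.2, STAR and the build GRCm38. How barcodes were called as cells was not given in the sources used here.

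A barcode was dropped with under 500 genes or more than 10% mitochondrial UMIs (35 of suffix 1, 507 of suffix 2), and the doublets that Scrublet called (scanpy 1.11.5, each suffix apart) were dropped next (10 and 93). The kept barcodes held 39767463 and 59222697 UMIs. Counts were summed per gate and suffix and scaled to CPM. Intervals at 95% are exact Poisson for levels, conditional exact for ratios and Clopper-Pearson for shares. They treat UMIs as independent molecules and cover counting error only. In a ratio, a gene at 0 on one side was set at 3 counts. The functions were tested on simulated data. Every column of the table carried suffix 1 or 2, so 0 columns were left without a suffix, but no label ties a suffix to a sample.

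By rule, the text could name all members, the 4 most abundant genes of each pathway or marker list, the 10 genes outside the list with the highest ratio (at least 50 UMIs) in the largest group set apart, and the gate genes. A gene that this rule names is not reported here. Of the lists, only genes that stand beside a result are printed. Ifnar1, Ifnb1 and Gzma were added after their values were seen. The members and lists were chosen with earlier results of these data known. Alternatives covered the gate minimum, cell filters, doublets, scaling, the minimum UMIs of a member, thinning, the Ifit1 and Rsad2 threshold and epithelial transcripts. The software was Python 3.11.15 with numpy 2.4.6, scipy 1.17.1 and pandas 2.3.3.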

Additional observations from a re-analysis of the deposited data

Results flagged for a closer look

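Some barcodes with these transcripts lay outside every gate: 7 of suffix 1 and 78 of suffix 2 had at least 3 UMIs of Ifit1 and Rsad2, and the gate comparisons do not use them. Without that pair, which chose the barcodes, the other 31 members summed to 4674 CPM in these 78, against 1020 in the other ungated barcodes of suffix 2.

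As computed in the report, 2 medians of the members between gates had opposite signs in the 2 suffixes. For the ILC2 gate over progenitors it was -0.68 in suffix 1 and 0.64 in suffix 2, and for the NK/ILC1 gate over progenitors -0.30 and 0.58. The difference between the suffixes was not tested, and only the signs of the ILC2 pair held under every alternative. The suffix 1 value of the NK/ILC1 gate lay above 0 under 4 alternatives and was near that of all genes, -0.31, and the suffix 2 value of the ILC2 gate was 0.0026 with the barcodes set apart kept in.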

How the results depend on the processing

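No paired analysis was possible because each group has 1 library and no label ties a barcode to it. Of the 12 medians, the 4 between suffixes stayed positive under every alternative, ranging from 0.91 to 1.39 among progenitors, 1.32 to 2.07 in the ILC2 gate, 1.57 to 2.31 in the NK/ILC1 gate and 0.92 to 1.62 in the DN2/DN3 gate. Their larger moves were 1.32 (ILC2) and 1.61 (NK/ILC1) with a gate minimum of 1 UMI, 1.57 in the NK/ILC1 gate with median-of-ratios scaling, and 2.31 there with the barcodes set apart kept in. The median of the NK/ILC1 gate over progenitors in suffix 1 changed sign, to 0.12 with a gate minimum of 1 UMI, 0.019 with median-of-ratios scaling, 0.18 with thinning and 0.0098 without barcodes with at least 1 UMI of Krt8 and Krt18, an alternative chosen after seeing the data; the cause was not tested. Ifit3 in the ILC2 gate over progenitors (-0.0251) and Rsad2 in the NK/ILC1 gate over the ILC2 gate (0.12), both in suffix 2, changed sign with the barcodes set apart kept in.

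The share of barcodes set apart moved by construction. Thinned to 5000 UMIs it was 0.581% of suffix 1 and 2.67% of suffix 2, 0.866% and 1.62% of progenitors, 1.66% (ILC2) and 4.54% (NK/ILC1) in suffix 2 and 0% of DN2/DN3 in suffix 1. With a minimum of 2 UMIs it was 8.89% of suffix 2, 12.6% of its progenitors and 6.53% of its ILC2 gate. With a minimum of 5 it was 0.655% and 4.03% of the suffixes, 4.68% (progenitor), 3.14% (ILC2) and 5.25% (NK/ILC1) in suffix 2 and 0% of DN2/DN3 in suffix 1. That last share was also 0% without barcodes with a keratin UMI. Leaving out the barcode sequences found in both suffixes, also added after seeing the data, moved no median or share beyond its interval. Counts of members past 2-fold moved by over 1.5 times in 37 of 336 cases. Of the thinned shares of barcodes with a UMI, 361 of 528 left their interval at 10000 UMIs or unthinned, so shares are read only at 1 depth.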
